A study of Mus musculus with 18 samples.

Results

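The guanylate-binding proteins (GBPs) and the immunity-related GTPases (IRGs) are 2 families of GTPases that cells make in response to interferon. The set described here holds 9 mouse genes of these families, Gbp2, Gbp3, Gbp5, Gbp6, Gbp7, Igtp, Irgm1, Irgm2 and Iigp1, chosen by gene symbol and not by a measured value. Of these 9, 8 had a row among the 21441 rows of each deposited table, and no row carried the symbol Gbp7. The effective transcript length implied by the row named Gbp6 was 5602 bases in macrophages and 5598 in liver, close to the 5548 bases that the GENCODE M1 annotation gives for Gbp7 and not to the 4314 bases it gives for Gbp6. The row named Mpa2l, an older symbol of Gbp6, implied 4325 and 4323 bases. Rows are therefore called by the names in the tables, and the row Gbp6 may hold the gene that is now named Gbp7.

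RNA-seq values covered RAW264.7 cells, a mouse macrophage-like line, and liver of wild type male C57BL/6 mice, 18 libraries in all, with 3 for every treatment (Control, LPS or LPS+MIC-1) of a tissue. MIC-1 is moringa isothiocyanate-1, an isothiocyanate from moringa seeds, and LPS is lipopolysaccharide, a bacterial cell wall component that Toll-like receptor TLR4 detects. The study describes 3 days of gavage with 80 mg/kg MIC-1 or with vehicle, a carrier with 10% DMSO, before the injection. Control mice received vehicle and then saline, and LPS mice vehicle and then an intraperitoneal dose of 10 mg/kg LPS. LPS+MIC-1 mice received MIC-1 in that carrier and then the same LPS dose. The labels give 3 days of pretreatment for every group. Livers were collected 16 h after the injection, and the age of the mice is not given in the sources used here. The labels of the macrophage samples repeat the mouse strain and doses, whereas the series' design text gives 10 µM MIC-1. The LPS concentration and the time of the sequenced cultures are not given in the sources used here. The study describes the livers as coming from separate mice, 3 for each treatment. The columns of the tables name the treatment but no replicate, so libraries are numbered by their order within a treatment. Nothing in the labels says that macrophage libraries came from separate cultures, so p-values measure the spread between libraries, which may be technical.

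As estimated from the steps between low values, macrophage libraries held 16200000 to 20900000 reads. Liver libraries held 4300000 to 9700000 reads in Control and 11100000 to 17300000 in the treated groups, so low values in control liver carry the largest counting error. In macrophages, LPS library 2 stood apart from LPS libraries 1 and 3. Its FPKM values summed to 598270, against 1137533 and 1132904 in the other LPS libraries and 557136 to 592848 in Control. Every macrophage comparison is therefore given with all 9 libraries as labelled and again with the 8 that remain without LPS library 2, the number of libraries that the study's methods describe. Within each treatment, libraries 1 and 3 of the macrophages differed by only 1.81 to 2.55 times the sampling variance, and other macrophage pairs by 10.0 to 204 times. Each liver group also held 1 close pair: LPS+MIC-1 libraries 1 and 3 (2.62 times), Control libraries 2 and 3 (6.65 times) and LPS libraries 1 and 3 (8.32 times). Other liver pairs differed by 47.3 to 115 times. The reason was not tested, and p-values in liver also measure only the spread between libraries. Of 8 macrophage markers listed, 6 had a row, and in macrophages all 6 had a mean FPKM above 1 in every group, as did 6 of 6 hepatocyte markers in liver.

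In the biology of these families, interferon-gamma acts through its receptor on gamma-activated sites (GAS), and type I interferons act through a complex with STAT2 and IRF9 on interferon-stimulated response elements (ISRE), which IRF1 can also use. GBPs gather on the vacuoles of intracellular parasites and on bacteria that reach the cytosol, and some of them promote inflammasome activation. IRGs fall into effectors such as Iigp1, which load onto pathogen vacuoles, and regulators such as Irgm1, Irgm2 and Igtp, which stay on the cell's own membranes and hold the effectors in check there. In macrophages LPS reaches these genes largely through interferon-beta made by the same cells, and in liver also through interferon-gamma from lymphocytes.

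The sequences below are shown because all 7 members with an entry in the RefSeq promoter table (Gbp2, Gbp3, Gbp5, Gbp7, Igtp, Irgm1 and Irgm2) held an ISRE core in the 250 bases upstream of a RefSeq start. The ISRE core searched was GAAANNGAAA, on either strand, and it occurred in 2.98% of the 32851 promoters of that table. The GAS core TTCNNNGAA, also searched on either strand, occurred in 7.02% of all promoters and in 4 of these 7 members. A 10-base NF-kappaB consensus occurred in 7.25% of all promoters and in 1 member, Gbp5. Capitals mark these matches, each sequence runs 5′ to 3′ on the strand of the gene, and the last base lies just before the RefSeq start.

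Gbp2: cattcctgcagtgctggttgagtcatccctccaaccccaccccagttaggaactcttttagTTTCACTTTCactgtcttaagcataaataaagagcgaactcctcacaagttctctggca
Gbp3: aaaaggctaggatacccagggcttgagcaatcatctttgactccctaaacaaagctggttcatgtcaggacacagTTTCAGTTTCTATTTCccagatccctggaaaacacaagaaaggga
Gbp5: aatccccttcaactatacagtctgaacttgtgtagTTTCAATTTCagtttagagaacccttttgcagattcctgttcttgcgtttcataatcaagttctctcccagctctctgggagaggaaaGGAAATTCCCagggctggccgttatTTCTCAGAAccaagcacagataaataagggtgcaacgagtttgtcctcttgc
Gbp7: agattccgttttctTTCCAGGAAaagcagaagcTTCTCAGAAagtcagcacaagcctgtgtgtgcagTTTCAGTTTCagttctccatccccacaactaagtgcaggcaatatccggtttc
Igtp: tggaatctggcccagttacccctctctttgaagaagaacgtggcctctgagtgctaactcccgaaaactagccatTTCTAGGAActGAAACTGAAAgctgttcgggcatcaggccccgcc
Irgm1: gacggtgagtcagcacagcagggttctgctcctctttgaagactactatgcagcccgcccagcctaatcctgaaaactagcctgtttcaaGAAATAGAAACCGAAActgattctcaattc
Irgm2: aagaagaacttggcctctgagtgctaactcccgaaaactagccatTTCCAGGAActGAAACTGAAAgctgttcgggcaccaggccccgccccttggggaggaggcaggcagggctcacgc

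The table takes its starts from GRCm38.p6, and each sequence was matched exactly and at only 1 place to the mm9 genome that the files use. In mm9 the bases shown lie at chr3:142283507-142283626 for Gbp2, chr3:142222888-142223007 for Gbp3, chr3:142159698-142159897 for Gbp5 and chr3:142193180-142193299 for Gbp7, all on the plus strand. Those of Igtp lie at chr11:58012938-58013057 and those of Irgm2 at chr11:58028359-58028478 on the plus strand, and those of Irgm1 at chr11:48684923-48685042 on the minus strand. GENCODE M1 starts Gbp2, Gbp5 and Irgm1 further upstream than RefSeq does, so that 61, 34 and 120 of the bases shown lie inside those genes there. Gbp3 has a further RefSeq start, whose 250 upstream bases held none of the 3 motifs. The ISRE core began 59 bases upstream of the start in Gbp2, 45 and 39 in Gbp3, 165 in Gbp5, 53 in Gbp7, 34 in Igtp, 30 and 24 in Irgm1 and 64 in Irgm2. In Igtp and Irgm2, neighbours on chromosome 11, 2 bases separated a GAS core from the ISRE core, and over the 50 bases that end with the ISRE core the sequences were identical at 49. In Gbp5 the NF-kappaB match (77 bases upstream) and a GAS core (52 bases) lay nearer to the start than the ISRE core, and a further GAS core (245 bases) lies outside the bases shown. A match of letters is a description of the sequence and not a measured binding site.

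The genes lie in clusters. In mm9, with GENCODE M1, Gbp5 (chr3:142159864-142185308), Gbp7 (chr3:142193302-142213047), Gbp3 (chr3:142223016-142236173) and Gbp2 (chr3:142283566-142300972) follow each other on the plus strand of chromosome 3. The annotation places Gbp6 on chromosome 5 (chr5:105699723-105722718, minus strand). On chromosome 11 lie Irgm1 (chr11:48675470-48685185, minus strand), Igtp (chr11:58013058-58021093) and Irgm2 (chr11:58028530-58036282), and Iigp1 is on chromosome 18 (chr18:60535683-60552281). All are annotated as protein-coding. The genes of a cluster are close relatives, and the authors' pseudoalignment shares reads between similar transcripts, so the split of reads between neighbouring GBP rows is uncertain.

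Untreated macrophages and untreated liver held the set in different orders. On the FPKM scale, which is per transcript length, the order by mean in control macrophages was Irgm1, Igtp, Irgm2, Gbp6, Gbp3, Gbp2, Iigp1 and Gbp5. Irgm1 stood at 50.6 ± 0.514 FPKM (mean ± SD, n = 3), higher than or equal to 92.0% of all rows, Igtp at 33.5 ± 5.72 and Irgm2 at 11.4 ± 0.265, and the ranges of these 3 regulators overlapped neither each other nor that of the next row. The ranges of the other 5 rows, with means from 2.06 to 5.29 FPKM, each overlapped that of their neighbour in the order.

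In control liver the effector Iigp1 led the order, at 155 ± 8.51 FPKM, higher than or equal to 97.6% of all rows. Mouse liver is known to make Iigp1 without infection. Igtp followed at 12.9 ± 1.01 and the row Gbp6 at 5.75 ± 0.942 FPKM, without overlap between these neighbours. Irgm2, Gbp2, Gbp5, Gbp3 and Irgm1 came last, with means from 0.958 to 3.05 FPKM and overlapping ranges. Irgm1, the highest member in macrophages, was thus the lowest in liver. The tissues were normalized in separate tables and were not tested against each other.

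In macrophages LPS libraries 1 and 3 departed from Control in both directions. There the rows Gbp2, Gbp3 and Gbp5 lay above every Control library, and the IRGs Igtp, Irgm1, Irgm2 and Iigp1, as well as the row Gbp6, lay below every Control library. LPS library 2 lay close to Control for most of the set. With all 9 libraries none of the 8 rows was called, and without LPS library 2 Gbp2 rose and the 4 IRGs fell.

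**Figure D1:**
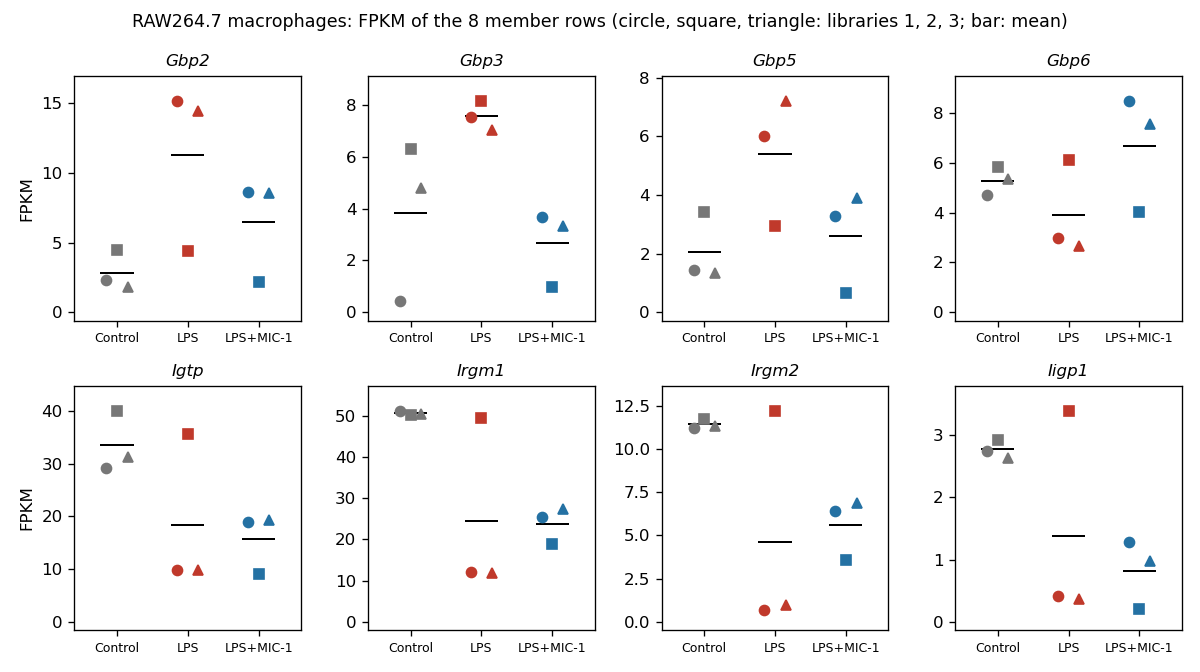
FPKM (y axis, linear, own scale for each gene) of the 8 member rows in the 9 macrophage libraries, by treatment (x axis). Circles, squares and triangles are libraries 1, 2 and 3 and bars are group means. In Irgm2 and Irgm1 the square of LPS lies at the level of Control, whereas the circle and the triangle lie far below.

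Irgm2, a regulator that sits on the Golgi, changed most. Its Control libraries held 11.2, 11.7 and 11.3 FPKM, its LPS libraries 0.705, 12.2 and 1.00 FPKM and its LPS+MIC-1 libraries 6.42, 3.58 and 6.86 FPKM. LPS libraries 1 and 3 were thus the lowest of the 9, LPS library 2 was the highest, and the LPS+MIC-1 libraries stood between. The LPS mean without LPS library 2 was 7.47% of the Control mean, a log2 fold change of -3.15 ± 0.245 (SE, limma adjusted p = 1.46e-05), and with all libraries it was 40.5% (log2 fold change -2.07 ± 0.790, limma adjusted p = 0.0807). Fold changes are on the log2(FPKM + 0.5) scale, which understates the change of genes as low as Irgm2 with LPS, whose lowest library rested on 33 reads.

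Irgm1, which controls autophagy and the survival of macrophages and stem cells during infection, held 51.1, 50.2 and 50.4 FPKM in Control. Its LPS libraries held 12.1, 49.4 and 12.0 FPKM and its LPS+MIC-1 libraries 25.3, 18.8 and 27.4 FPKM. LPS library 2 was just below Control, and the other LPS libraries were at 23.8% of the Control mean. The log2 fold change was -2.03 ± 0.143 without LPS library 2 (limma adjusted p = 9.36e-06) and -1.36 ± 0.487 with it (limma adjusted p = 0.0777).

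Igtp, the regulator also known as Irgm3, held 29.2, 39.96 and 31.2 FPKM in Control, 9.85, 35.7 and 9.75 FPKM in LPS and 18.9, 9.14 and 19.2 FPKM in LPS+MIC-1. Again LPS library 2 fell inside the Control range and LPS libraries 1 and 3 far below it. The effector Iigp1 was low throughout, at 2.75, 2.93 and 2.64 FPKM in Control, 0.410, 3.39 and 0.362 FPKM in LPS and 1.28, 0.206 and 0.981 FPKM in LPS+MIC-1, and it rested on 12 to 219 reads per library. The log2 fold change without LPS library 2 was -1.71 ± 0.304 for Igtp (limma adjusted p = 0.00123) and -1.88 ± 0.359 for Iigp1 (limma adjusted p = 0.00179). With it these were -1.11 ± 0.504 and -1.17 ± 0.595, and neither passed (limma adjusted p = 0.111 and 0.141).

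Gbp2, which coats pathogen vacuoles, moved the other way. Its Control libraries held 2.31, 4.47 and 1.79 FPKM, its LPS libraries 15.1, 4.39 and 14.4 FPKM and its LPS+MIC-1 libraries 8.65, 2.16 and 8.57 FPKM. Its LPS mean without LPS library 2 was 5.18 times the Control mean, a log2 fold change of 2.27 ± 0.558 (limma adjusted p = 0.00661), and with that library, which fell inside the Control range, 1.72 ± 0.622 (limma adjusted p = 0.0777). Rescaling the same 8 libraries to equal sums left the direction and ended this call (1.36, limma adjusted p = 0.04997).

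Gbp5, which takes part in assembling the NLRP3 inflammasome, held 1.43, 3.40 and 1.34 FPKM in Control, 6.02, 2.95 and 7.19 FPKM in LPS and 3.27, 0.646 and 3.89 FPKM in LPS+MIC-1. Its log2 fold change with LPS was 1.22 ± 0.567 over all libraries and 1.56 ± 0.584 without LPS library 2, and it passed neither time (limma adjusted p = 0.117 and 0.0403 against a limit of 0.01). Gbp3 held 0.435, 6.29 and 4.80 FPKM in Control, 7.54, 8.15 and 7.05 FPKM in LPS and 3.66, 0.984 and 3.35 FPKM in LPS+MIC-1. Gbp3 was the only row of the set in which every LPS library, LPS library 2 included, lay above every Control library. Its Control libraries themselves ran from 0.435 to 6.29 FPKM. The log2 fold change did not pass, at 1.32 ± 0.725 with all libraries and 1.27 ± 0.833 without LPS library 2 (limma adjusted p = 0.166 and 0.198). The row Gbp6 held 4.71, 5.81 and 5.33 FPKM in Control, 2.98, 6.12 and 2.66 FPKM in LPS and 8.46, 4.04 and 7.55 FPKM in LPS+MIC-1. It had a log2 fold change with LPS of -0.47 ± 0.340 over all libraries and -0.80 ± 0.269 without LPS library 2, which did not pass (limma adjusted p = 0.278 and 0.0269), and which had the sign of the IRGs and not of the other GBP rows.

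Counted over the comparison of LPS with Control, 0 of the 8 rows were called (adjusted p below 0.01 and absolute log2 fold change above 1) with all 9 libraries, where limma called 0.0% of the 9905 genes tested. At an unadjusted p below 0.05 these were 3 of the 8 rows and 4928 of all genes. Without LPS library 2, 1 row rose and 4 fell, against 34.2% of all genes called. The median log2 fold change was 1.42 over the 4 GBP rows and -1.96 over the 4 IRG rows, beside -0.03 over all genes tested. FPKM ranges did not overlap for 2 of 8 rows with all libraries (33.3% of all genes) and for 8 of 8 without LPS library 2 (85.6%), so the latter share is near that of all genes. An exact permutation test cannot go below p = 0.1 with 3 against 3 libraries. Because the FPKM of LPS libraries 1 and 3 summed to far more than in Control, scaling matters here: rescaled to equal sums without LPS library 2, the median over all genes moved from -0.03 to -0.93 and the share of calls that were higher from 47.5% to 9.8%. Under that scaling all 8 rows kept their sign, with Gbp2, Gbp3 and Gbp5 smaller at 1.36, 0.41 and 0.70, none called, and with log2 fold changes of -2.66, -2.98, -3.85 and -2.43 for Igtp, Irgm1, Irgm2 and Iigp1 and -1.65 for the row Gbp6.

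Where LPS+MIC-1 was compared with LPS in macrophages, calls within the set were few. With all libraries 0 of 8 rows were called, against 3.87% of all genes, and 0 of 8 had an unadjusted p below 0.05 in limma, against 3740 of all genes. When LPS library 2 was left out, 2 of 8 were called, a share near the 23.3% of all genes: Irgm2 and the row Gbp6 were higher with MIC-1. FPKM ranges did not overlap for 1 of 8 rows with all libraries (36.1% of all genes) and for 6 of 8 without LPS library 2 (80.3%), 3 with MIC-1 higher and 3 with MIC-1 lower.

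Irgm2 was 6.59 times as high in LPS+MIC-1 as in LPS libraries 1 and 3, a log2 fold change of 2.14 ± 0.245 (limma adjusted p = 0.000156), while with all libraries it was 1.06 ± 0.790 (limma adjusted p = 0.351). The row Gbp6 had a log2 fold change of 1.06 ± 0.269 without LPS library 2 (limma adjusted p = 0.00911) and 0.72 ± 0.340 with it (limma adjusted p = 0.157). Irgm1 was 1.98 times as high without LPS library 2, and its log2 fold change of 0.94 ± 0.143 passed the p limit (limma adjusted p = 0.000678) but not the limit on size. Igtp and Iigp1 had log2 fold changes of 0.59 ± 0.304 and 0.48 ± 0.359 and did not pass (limma adjusted p = 0.120 and 0.270). With all libraries Irgm1, Igtp and Iigp1 stood at 0.28, -0.02 and -0.24 (limma adjusted p = 0.705, 0.984 and 0.797). The sign for Igtp and Iigp1 thus turned without LPS library 2, and that for Igtp also when all libraries were rescaled to equal sums (0.45). Rescaled to equal sums without that library, the median over all genes moved from 0.01 to 0.74 and the higher share of calls from 48.5% to 93.0% (with all libraries, from 53.3% to 86.0%). Igtp and Irgm1 were then called higher as well, at 1.35 and 1.71 (limma adjusted p = 0.00355 and 2.03e-05), 4 of 8 rows in all.

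Gbp2, Gbp3 and Gbp5 had lower means with MIC-1, none of them past the test. Every LPS+MIC-1 library lay below LPS libraries 1 and 3 for these 3 rows, and without LPS library 2 they had log2 fold changes of -1.34 ± 0.558, -1.44 ± 0.833 and -1.41 ± 0.584 (limma adjusted p = 0.0639, 0.159 and 0.0628). With all libraries these were -0.79, -1.49 and -1.06 (limma adjusted p = 0.376, 0.170 and 0.205), and only Gbp3 kept ranges that did not overlap. At equal sums without LPS library 2 they shrank to -0.58, -0.71 and -0.70. LPS+MIC-1 library 2 was the lowest of its group for all 8 rows.

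**Figure D2:**
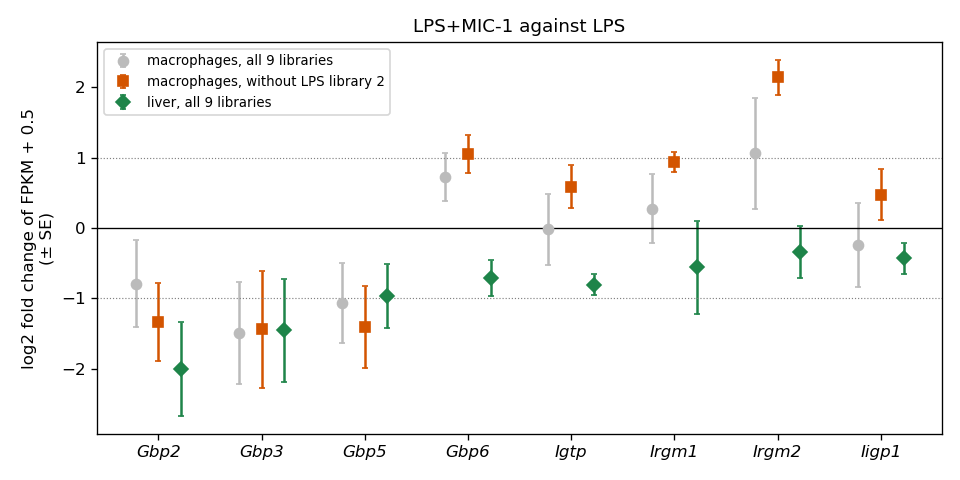
Log2 fold change of LPS+MIC-1 against LPS on the log2(FPKM + 0.5) scale (y axis, bars ± SE) for the 8 member rows (x axis), in macrophages with all 9 libraries, in macrophages without LPS library 2 and in liver. Dotted lines mark the fold limits of 1 and -1. In macrophages Irgm2 stands highest, at 2.14 without LPS library 2, and in liver all 8 rows lie below 0.

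Against Control, the LPS+MIC-1 macrophages stayed low for the IRGs. Every LPS+MIC-1 library lay below every Control library for Igtp, Irgm1, Irgm2 and Iigp1, 4 of 8 rows, beside 66.4% of all genes without overlap between these groups in either direction. None was called with all libraries, where 5.59% of all genes were, and 1 of 8 rows, Iigp1, had an unadjusted p below 0.05 in limma against 3828 of all genes. The fit without LPS library 2 uses the same Control and LPS+MIC-1 libraries with another estimate of the spread. There all 4 were called lower, against 15.7% of all genes called in either direction, of which 47.9% were higher. Their log2 fold changes were -1.12 ± 0.272 for Igtp, -1.09 ± 0.128 for Irgm1, -1.01 ± 0.219 for Irgm2 and -1.41 ± 0.321 for Iigp1 (limma adjusted p = 0.00838, 0.000234, 0.00498 and 0.00629, against 0.140, 0.140, 0.382 and 0.120 with all libraries). Rescaling to equal sums moved the higher share of calls from 58.5% to 78.0% with all libraries and from 47.9% to 34.5% without LPS library 2, and left the 4 IRGs lower. The GBP rows had log2 fold changes from -0.17 to 0.93 and ranges that overlapped Control.

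In liver LPS raised 3 of the 4 GBP rows of the set together with its regulatory IRGs. Gbp2, Gbp3, Gbp5, Igtp, Irgm1 and Irgm2 were called higher in LPS than in Control (adjusted p below 0.05 and absolute log2 fold change above 1), 6 of 8 rows, while limma called 24.6% of the 10147 genes tested and 13.4% as higher. Iigp1 and the row Gbp6 were not called. FPKM ranges did not overlap for 7 of 8 rows, all with LPS higher, against 45.0% of all genes in either direction and 24.2% in this one. The median log2 fold change was 2.21 over the 8 rows and 0.15 over all genes. With the closest libraries of each group averaged, which leaves fewer samples, limma called 151 genes and, of the set, Igtp alone. In whole liver, more cells of a type and more RNA per cell cannot be told apart. Rescaling the libraries to equal sums moved the median of all genes from 0.15 to -0.18 and the higher share of calls from 54.4% to 30.1%, and of the 6 calls it ended that of Gbp5 (1.25, limma adjusted p = 0.0566).

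**Figure D3:**
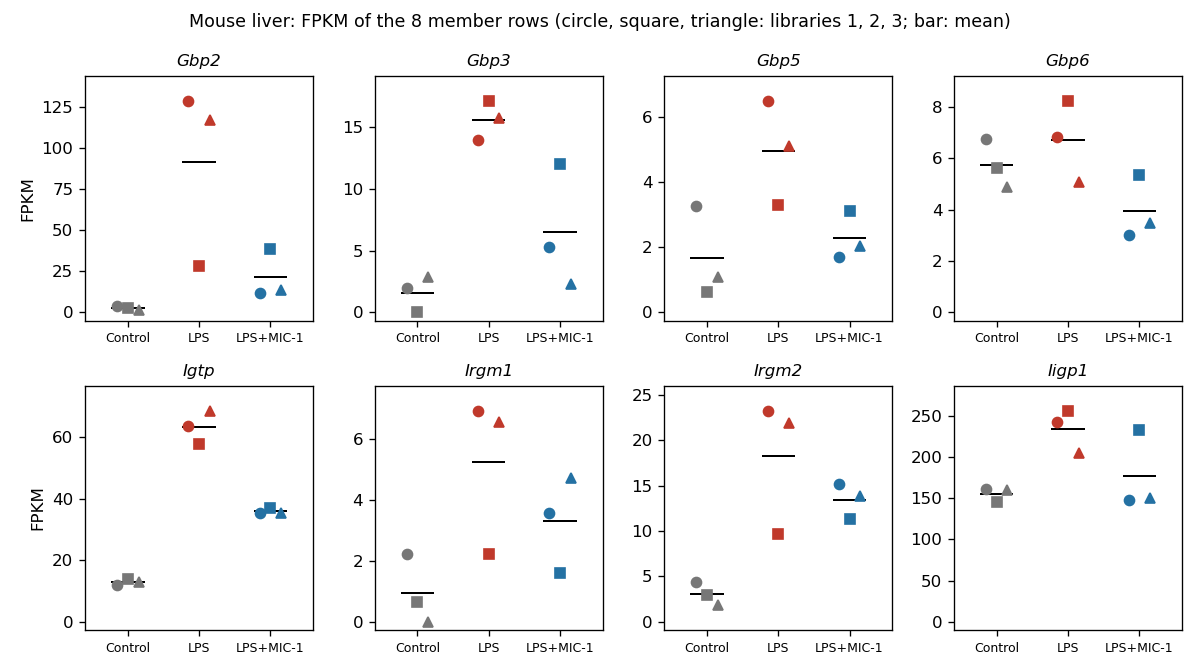
FPKM (y axis, linear, own scale for each gene) of the 8 member rows in the 9 liver libraries, by treatment (x axis). Circles, squares and triangles are libraries 1, 2 and 3 and bars are group means. Igtp shows 3 groups without overlap, whereas in Gbp2 the square lies far below the other LPS libraries and above the other LPS+MIC-1 libraries.

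Gbp2 had the largest change of the set. Its Control libraries held 3.78, 2.58 and 1.19 FPKM, its LPS libraries 128, 28.3 and 117 FPKM and its LPS+MIC-1 libraries 11.9, 38.5 and 13.6 FPKM. All LPS libraries lay above Control, and LPS library 2 was at about the level of LPS+MIC-1 library 2. The LPS mean was 36.3 times the Control mean, a log2 fold change of 4.76 ± 0.668 (limma adjusted p = 0.00283).

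Igtp was the steadiest member. It held 11.9, 13.9 and 13.0 FPKM in Control, 63.7, 57.7 and 68.5 FPKM in LPS and 35.5, 36.9 and 35.3 FPKM in LPS+MIC-1, so the 3 groups did not overlap. With LPS it was 4.90 times as high as in Control, a log2 fold change of 2.25 ± 0.148 (limma adjusted p = 0.000204), and it alone of the 6 called rows stayed called under all 22 alternatives. Irgm2 held 4.37, 2.91 and 1.88 FPKM in Control, 23.2, 9.63 and 21.9 FPKM in LPS and 15.1, 11.3 and 13.8 FPKM in LPS+MIC-1, with a log2 fold change of 2.36 ± 0.373 with LPS (limma adjusted p = 0.00414).

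Gbp3 held 1.93, 0 and 2.82 FPKM in Control, 14.0, 17.1 and 15.8 FPKM in LPS and 5.31, 12.0 and 2.29 FPKM in LPS+MIC-1. Irgm1 held 2.22, 0.648 and 0 FPKM in Control, 6.91, 2.24 and 6.54 FPKM in LPS and 3.55, 1.60 and 4.73 FPKM in LPS+MIC-1. A listed 0 in these tables can be a failed estimate: 426 zeros over the genes tested in liver stand beside at least 50 reads in both other libraries of the group. With all libraries the log2 fold change with LPS was 3.33 ± 0.734 for Gbp3 and 2.17 ± 0.658 for Irgm1 (limma adjusted p = 0.0119 and 0.0344). With zeros taken as missing, Gbp3 kept its call at 2.50 (limma adjusted p = 0.0108) and Irgm1 lost it at 1.56 (limma adjusted p = 0.0690).

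Gbp5 held 3.28, 0.613 and 1.08 FPKM in Control, 6.50, 3.29 and 5.12 FPKM in LPS and 1.69, 3.12 and 2.04 FPKM in LPS+MIC-1. Its lowest LPS library barely cleared its highest Control library, and the log2 fold change was 1.496 ± 0.454 (limma adjusted p = 0.0347). This call was lost when Control library 2 or 3, LPS library 1 or 3 or LPS+MIC-1 library 1 or 3 was left out (limma adjusted p up to 0.118), and that of Irgm1 without Control library 2 or 3, LPS library 1 or 3 or LPS+MIC-1 library 1 (up to 0.117). The row Gbp6 held 6.76, 5.61 and 4.89 FPKM in Control, 6.82, 8.21 and 5.07 FPKM in LPS and 3.01, 5.33 and 3.46 FPKM in LPS+MIC-1. It had a log2 fold change of 0.19 ± 0.255 (limma adjusted p = 0.575), whose sign turned under rescaling to equal sums (-0.15).

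Iigp1, the member already high in untreated liver, held 161, 145 and 159 FPKM in Control, 242, 256 and 205 FPKM in LPS and 148, 232 and 150 FPKM in LPS+MIC-1. Every LPS library lay above every Control library, by a ratio of means of 1.51, and the log2 fold change of 0.59 ± 0.217 did not pass (limma adjusted p = 0.0644). Behind these values stood 2447 to 11784 reads per library, so counting error is small here.

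**Figure D4:**
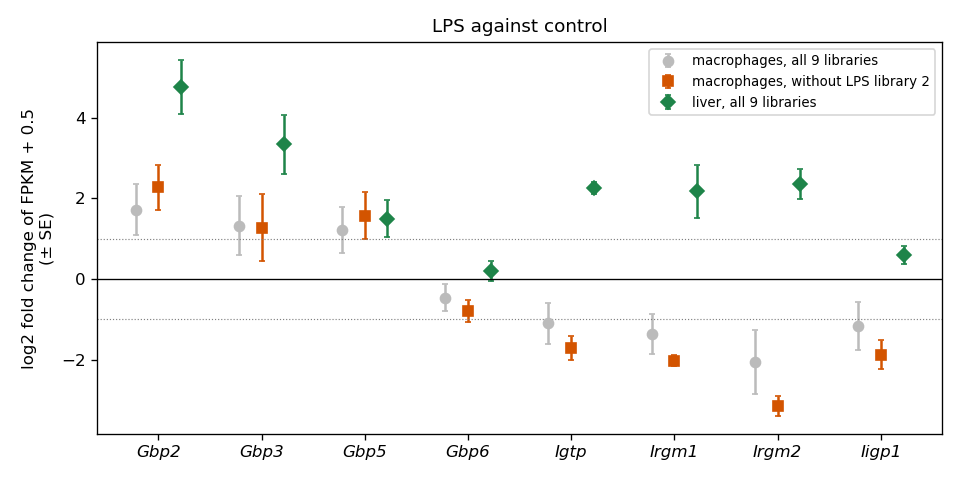
Log2 fold change of LPS against Control on the log2(FPKM + 0.5) scale (y axis, bars ± SE) for the 8 member rows (x axis), in macrophages with all 9 libraries, in macrophages without LPS library 2 and in liver. Dotted lines mark the fold limits of 1 and -1. For Igtp, Irgm1, Irgm2 and Iigp1 the macrophage values lie below 0 and the liver values above 0, from -3.15 to -1.71 without LPS library 2 and from 0.59 to 2.36 in liver.

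With MIC-1 the members in liver were lower than with LPS in all 8 mean log2 differences, and none was called. Limma called 0.0% of all genes in this comparison, and at an unadjusted p below 0.05 these were 3 of 8 rows (Gbp2, the row Gbp6 and Igtp) and 364 of all genes. FPKM ranges did not overlap for Gbp3, Gbp5 and Igtp, 3 of 8 rows, all with LPS+MIC-1 lower, against 9.75% of all genes in either direction and 4.64% in this one. Igtp stood at 56.7% of its LPS mean, a log2 fold change of -0.81 ± 0.148 with an unadjusted p of 0.000498 and a limma adjusted p of 0.774. Gbp2 stood at 23.4% of its LPS mean (log2 fold change -1.999 ± 0.668, limma adjusted p = 0.997), with overlapping ranges. Gbp3 and Gbp5 stood at 41.8% and 46.0% of their LPS means, with log2 fold changes of -1.45 ± 0.734 and -0.96 ± 0.454 (limma adjusted p = 0.997 for each). The other 4 rows had log2 fold changes from -0.71 to -0.34. The median over the 8 rows was -0.76, beside -0.01 over all genes.

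Compared with Control, the LPS+MIC-1 livers still held more Gbp2, Igtp and Irgm2. These 3 of 8 rows were called higher, against 25.2% of all genes called in either direction, of which 54.5% were higher. The same 3 had ranges that did not overlap, against 54.6% of all genes in either direction. Their log2 fold changes were 2.76 ± 0.668, 1.44 ± 0.148 and 2.02 ± 0.373 (limma adjusted p = 0.0147, 0.000791 and 0.00580). Gbp3, Irgm1 and Gbp5 had log2 fold changes of 1.88 ± 0.734, 1.61 ± 0.658 and 0.53 ± 0.454 and did not pass (limma adjusted p = 0.0745, 0.0854 and 0.375). The call of Gbp2 was lost without Control library 3 (2.39, limma adjusted p = 0.0545), and without Control library 1 Gbp5 and Irgm1 were called as well (1.04 and 2.23). Rescaling to equal sums moved the higher share of calls from 54.5% to 17.2%, took Igtp under the limit on size (0.80) and made the row Gbp6 lower (-1.11, limma adjusted p = 0.0103). The comparisons of a table share libraries and are not independent.

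Markers of other cells moved in liver between the same groups. Of the 6 neutrophil markers listed, 5 had a row, and their summed FPKM ran from 35.8 to 52.1 in Control, where Mpo was listed at 0, from 263 to 326 in LPS and from 158 to 372 in LPS+MIC-1. The sum of the macrophage markers, 6 of 8 with a row, ran from 19.9 to 38.5 in Control, where Ptprc was listed at 0, from 48.3 to 58.3 in LPS and from 32.4 to 73.2 in LPS+MIC-1, where Emr1 was listed at 0. Within the neutrophil list S100a8, Retnlg and Elane were called higher with LPS, and Cxcr2, most of the Control sum, was called lower. The 5 Kupffer cell markers summed to 29.2 to 51.0, 36.9 to 53.9 and 50.9 to 96.1 FPKM. The sum of the 7 T and NK cell markers went from 12.1 to 16.9 FPKM in Control to 4.29 to 7.98 in LPS and 4.89 to 6.90 in LPS+MIC-1. This fall was mostly that of Cd3d, with means of 10.9, 3.06 and 1.23 FPKM, while the means of Nkg7 and Klrb1c were higher in the treated groups. The sum of the 5 endothelial markers went from 35.4 to 38.7 FPKM to 12.7 to 20.2 and 13.1 to 31.1, with Clec4g and Kdr called lower with LPS and Pecam1 called higher. The 6 hepatocyte markers summed to 41140 to 81230, 36080 to 46190 and 35510 to 46170 FPKM. Among Kupffer markers Clec4f and Vsig4 were called lower with LPS and Marco higher. The part of these cells in the members' changes was not tested. In the macrophage cultures T and NK cell markers summed to less than 1 FPKM in every library and 3 of 7 were at 0 throughout, while the neutrophil list ran from 2.36 to 3.41 FPKM in Control, 4.55 to 41.0 in LPS and 653 to 720 in LPS+MIC-1, nearly all of it S100a8, with Retnlg at 0 in both treated groups.

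The balance between GBP rows and the chromosome 11 IRGs can be read within a library, where scaling between libraries plays no part. The summed FPKM of the 4 GBP rows, divided by that of Igtp, Irgm1 and Irgm2, was 0.0969, 0.196 and 0.143 in Control macrophages, 1.40, 0.222 and 1.38 in LPS and 0.474, 0.249 and 0.437 in LPS+MIC-1. The GBP rows thus outweighed these IRGs only in LPS libraries 1 and 3, and LPS library 2 stood just above the Control range. In liver the ratio was 0.853, 0.505 and 0.669 in Control, 1.66, 0.819 and 1.48 in LPS and 0.405, 1.18 and 0.398 in LPS+MIC-1. There library 2 departed from libraries 1 and 3 in both treated groups, downward in LPS and upward in LPS+MIC-1, and the ranges of all 3 liver groups overlapped. The ratio depends on leaving out Iigp1, the most abundant member in liver: with it added to the IRGs, the liver ratio was 0.0878, 0.0540 and 0.0572 in Control, 0.463, 0.175 and 0.474 in LPS and 0.108, 0.209 and 0.105 in LPS+MIC-1, so the GBP rows outweighed the IRGs in no liver library. In macrophages adding Iigp1 changed little, at 1.37 and 1.36 in LPS libraries 1 and 3. With LPS the ratio is led by Gbp2 in liver, so it shows the unequal change of rows and not which of them changed.

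**Figure D5:**
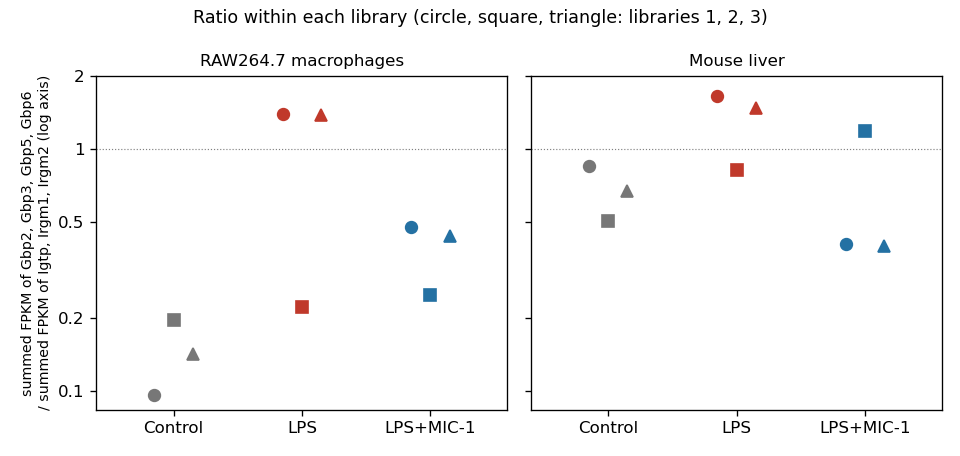
Summed FPKM of Gbp2, Gbp3, Gbp5 and Gbp6 over that of Igtp, Irgm1 and Irgm2 (y axis, log axis, no unit) in each library, by treatment (x axis), for macrophages and liver. Circles, squares and triangles are libraries 1, 2 and 3. In macrophages LPS libraries 1 and 3 stand at 1.40 and 1.38, above all other macrophage libraries.

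Other genes of the same families were counted from a list of 26, of which 20 had a row and 12 were tested in each table. In macrophages none of the 12 was called with LPS over all libraries, beside 0.0% of all genes. At an unadjusted p below 0.05 in limma these were 5 of 12, beside 4928 of the 9905 genes tested. Without LPS library 2 Gbp1 was called higher and 8 were called lower, among them Gbp9 of the GBP family, beside 34.2% of all genes called. Gbp1, the neighbour of Gbp2 on chromosome 3, held 1.03, 2.19 and 0.929 FPKM in Control, 8.68, 2.32 and 7.25 FPKM in LPS and 4.51, 1.52 and 4.49 FPKM in LPS+MIC-1, with a log2 fold change of 2.22 ± 0.438 without LPS library 2 (limma adjusted p = 0.00213) and 1.70 ± 0.536 with it (limma adjusted p = 0.0777). Ifi47, an IRG of chromosome 11, held 12.1, 12.1 and 13.1 FPKM in Control and is listed at 0, 6.56 and 2.78 FPKM in LPS. Its log2 fold change was -3.34 ± 0.724 without LPS library 2 (limma adjusted p = 0.00354) and -2.52 ± 0.853 with it (limma adjusted p = 0.0777). The LPS values left without that library are the listed 0, which may be a failed estimate, and 2.78 FPKM. The row Mpa2l had log2 fold changes of -0.40 ± 0.297 and -0.14 ± 0.327 and did not pass.

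In liver 8 of the 12 were called higher with LPS and 2 lower, beside 24.6% of all genes called and 13.4% called higher, with a median log2 fold change of 1.72 beside 0.15 over all genes. The row Mpa2l held 4.42, 4.97 and 5.72 FPKM in Control, 38.5, 21.2 and 39.6 FPKM in LPS and 17.3, 23.4 and 16.9 FPKM in LPS+MIC-1, with a log2 fold change of 2.56 ± 0.266 with LPS (limma adjusted p = 0.000807). Ifi47 rose by a log2 fold change of 1.82 ± 0.230 (limma adjusted p = 0.00188). The remaining row named by its level, Gm4951, an IRG gene beside Iigp1, fell by 1.38 ± 0.346 on the log2 scale (limma adjusted p = 0.0180). With MIC-1 none of the 12 was called against LPS in liver, beside 0.0% of all genes. At an unadjusted p below 0.05 in limma these were 3 of 12, beside 364 of the 10147 genes tested. In macrophages with all libraries none was called, beside 3.87% of all genes (1 of 12 and 3740 of 9905 genes at that unadjusted p). Without LPS library 2 none was called either, beside 23.3% of all genes (5 of 12 and 7045 of 9905 genes at that unadjusted p). Against Control, LPS+MIC-1 had 7 of the 12 called higher and 3 lower in liver, beside 25.2% of all genes called. In macrophages none was called with all libraries, beside 5.59% of all genes, and 5 were lower without LPS library 2, beside 15.7%. With all macrophage libraries 5 of 12 had an unadjusted p below 0.05 in limma, beside 3828 of all genes.

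The interferon pathway list of 34 genes held ligands, receptors, kinases, transcription factors, feedback regulators and other targets, and 25 were tested in each table. None of the 6 ligands had a mean FPKM above 1. Ifng held at most 0.0568 FPKM in macrophages and at most 0.498 FPKM in liver, and Ifnb1 was highest in macrophage LPS libraries 1 and 3, at 1.19 and 0.893 FPKM, against 0.374 FPKM in LPS library 2 and 0.0747 to 0.284 FPKM in Control. In macrophages Ifnb1 rested on only 0 to 10 reads per library. With all macrophage libraries none of the 25 was called with LPS (12 at an unadjusted p below 0.05 in limma, beside 4928 of the 9905 genes tested), and without LPS library 2, 6 were called higher and 5 lower, beside 34.2% of all genes called.

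The receptors and transcription factors of the pathway divided in macrophages when LPS library 2 was left out. Ifngr1, a chain of the interferon-gamma receptor, had a log2 fold change of -1.51 ± 0.138 with LPS (limma adjusted p = 3.26e-05), and Irf1, a factor that drives GBP and IRG genes, one of -1.44 ± 0.209 (limma adjusted p = 0.000410). Ifnar1, Ifnar2, Jak2, Irf7, Irf8 and Cd274 were called higher, with Irf8 at 1.73 ± 0.156 (limma adjusted p = 3.06e-05), and Irf3, Batf2 and Cxcl10 were also called lower. Irf9 was not called, at -0.16 ± 0.141 (limma adjusted p = 0.315), nor was Stat2 at -1.05 ± 0.299 (limma adjusted p = 0.0133), nor Ifngr2 at 0.64 ± 0.088 (limma adjusted p = 0.000305), which missed the limit on size. With all libraries Ifngr1, Irf1 and Irf8 had log2 fold changes of -1.01, -0.87 and 1.15 and did not pass (limma adjusted p = 0.0796, 0.139 and 0.0787).

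In macrophages with MIC-1, against LPS and with all libraries, Psmb8, Psmb9 and Tap1, which serve antigen processing for MHC class I, were called lower, with log2 fold changes of -1.10 ± 0.177, -1.63 ± 0.286 and -1.46 ± 0.255 (limma adjusted p = 0.00574, 0.00819 and 0.00806). With LPS library 2 left out, 9 of 25 were called lower and 2 higher, beside 23.3% of all genes called, and Psmb8 fell just short of the limit on size (-0.998 ± 0.165). Against Control, Cxcl10, Psmb8 and Psmb9 were called lower with all libraries, and 4 lower and 2 higher without LPS library 2, beside 5.59% and 15.7% of all genes called. In liver with LPS, 7 of 25 were called higher (Irf7, Socs3, Usp18, Cxcl9, Cxcl10, Psmb8 and Tap1) and 1 lower (Irf2), beside 24.6% of all genes called, with a median log2 fold change of 0.56. Cxcl9, a chemokine that interferon-gamma induces, had the largest value at 5.47 ± 0.534 (limma adjusted p = 0.000610). In liver Irf1 had a log2 fold change of -0.03 ± 0.277, Ifngr1 0.83 ± 0.207, Ifngr2 0.64 ± 0.251, Stat2 -0.68 ± 0.471, Irf8 0.56 ± 0.160 and Irf9 0.30 ± 0.211, and none of these 6 was called. No list gene was called in liver between LPS+MIC-1 and LPS, beside 0.0% of all genes. At an unadjusted p below 0.05 in limma these were 2 of 25, beside 364 of all genes. Between LPS+MIC-1 and Control the same 7 were called higher and 1, Ifnar1, lower, beside 25.2% of all genes called.

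The genes whose pattern was most like the mean pattern of the 8 rows were sought among 8164 genes tested in both tables, by the lower of the Pearson correlations over the 9 libraries of each table. The row Mpa2l came first, with r = 0.933 in macrophages and 0.901 in liver, and Ufsp1, Gbp9 and Tifa, also among the 6 most alike, had a lower r of 0.849 to 0.865. Mpa2l and Gbp9 belong to the GBP family themselves. Mpa2l is an older symbol of Gbp6, so the row that came first may hold a gene of the set and not one outside it. These values describe likeness over libraries that share treatment and depth, and the mean pattern joins rows that moved in opposite directions in macrophages.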

How the data were processed

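The authors pseudoaligned the reads with kallisto 0.45.0 to a RefSeq index of mm9, and the deposited FPKM values, in 1 table for macrophages and 1 for liver, came from the authors' DESeq2 1.20.0 after tximport; tools and build are those of the authors' methods and processing notes. The deposited FPKM values are scaled between libraries by size factors. The mean normalized count over all libraries of a tissue, a signal that the authors' tables also hold, was used only to turn FPKM into reads. The log2 fold changes and p-values of the authors' own comparisons were not used. All columns matched a group by name.

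Testing was limited to genes whose FPKM averaged more than 1 across the 9 libraries of a table, and used limma 3.58.1 in R 4.3.3 (lmFit, contrasts, eBayes with trend) on log2(FPKM + 0.5), each table alone and all 3 groups in 1 fit, with Benjamini-Hochberg adjustment over all genes tested. Calls needed an absolute log2 fold change above 1 and an adjusted p below 0.01 in macrophages or 0.05 in liver. The same test was tested on simulated data. Reads per library were estimated as the smallest factor that made low values whole (within 0.05 reads); 91.7 to 99.6% of them came out whole. FPKM ranges were compared by their lowest and highest library. Promoter motifs were searched in Python 3.11.15 in the RefSeq promoter table, with chromosome 18 left out. Figures were drawn with matplotlib 3.10.9.

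The members, lists and tests were chosen with earlier results of these data known. Named are the 9 members, the 3 other family rows of highest mean FPKM in each table (Gbp9 and F830016B08Rik were chosen after their values were seen), listed pathway genes and those of them called, and, of the 6 genes most alike in pattern, 4; a few listed or ranked genes are not reported here. Alternatives changed the pseudocount, the filter, the groups in the fit, the scaling, the variance trend, the thresholds and the libraries; 3 kinds were added after seeing the data: averaging the closest libraries of a group, taking zeros as missing, and leaving out LPS library 2 together with rescaling to equal sums. Protein sequences were not used here.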

Additional observations from a re-analysis of the deposited data

Results flagged for a closer look

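For 6 differences every library of a treated group lay on 1 side of the reference group's mean of log2 values in liver and on the opposite side in macrophages. The difference between the tissues was not tested in any of them, because the tables were normalized separately, and chance was not assessed. Values are log2 fold changes over all 9 libraries of each table.

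Irgm1 with LPS against Control stood at 2.17 in liver and -1.36 in macrophages, a difference of 3.53. In macrophages LPS library 2 lay only just below Control, and in liver a Control library is listed at 0. Against Control with LPS+MIC-1, Irgm1 differed by 2.7 (1.61 and -1.09), Irgm2 by 3.03 (2.02 and -1.01) and Igtp by 2.56 (1.44 and -1.12). Between LPS+MIC-1 and LPS, Irgm2 differed by -1.4 (-0.34 in liver and 1.06 in macrophages) and the row Gbp6 by -1.43 (-0.71 and 0.72). The tissues also differ in how they were treated, as cells in culture and as whole animals.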

How the results depend on the processing

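No paired analysis was possible because the columns carry no replicate numbers, so no replicate block could be fitted. Of the log2 fold changes of the member rows under the alternatives, 957 kept their sign and side of the threshold, 32 lost the call, 31 gained one, 20 changed sign without a call in either setting and 1 changed sign with a call; the causes were not tested. In the fit without LPS library 2 and rescaled to equal sums, Igtp turned from -0.02 to 1.35 and Irf1 to 1.13 (both LPS+MIC-1 against LPS) in macrophages.

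Macrophage LPS against Control had 0 genes called, 1 with zeros as missing, and 5064 genes and 5 members without LPS library 2 at equal sums; leaving out 1 library gave 0 to 3386 genes and 0 to 5 members. LPS+MIC-1 against LPS had 383 genes called, 5 with only the 2 groups compared, 0 with close libraries averaged, 617 with no minimum fold, 823 at an adjusted p below 0.05 and 3856 with 4 members without LPS library 2 at equal sums; leaving out 1 library gave 109 to 2310 genes and 0 to 2 members. LPS+MIC-1 against Control had 554, then 1541 (2 members) with 2 groups, 0 averaged, 866 with no minimum fold, 1172 at 0.05 and 1723 (4 members) without LPS library 2 at equal sums; leaving out 1 library gave 141 to 1560 genes and 0 to 4 members. All members called when 1 macrophage library was left out were called without LPS library 2.

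In liver, LPS against Control fell from 2493 genes to 151 (1 member, Igtp) with close libraries averaged, which leaves fewer samples, and to 1102 (3 members) at an adjusted p below 0.01; leaving out 1 library gave 1227 to 3510 genes and 4 to 6 members. LPS+MIC-1 against LPS had 0 genes, 1 with a pseudocount of 1, 2 with no filter and 1 with no variance trend. At an unadjusted p below 0.05 with the fold limit kept, it had 100 (1 member, Gbp2). Leaving out 1 library gave 0 to 35, the most without LPS library 2. LPS+MIC-1 against Control fell from 2560 to 160 (0 members) averaged and 1370 at 0.01, with 5 members at an unadjusted p below 0.05; leaving out 1 library gave 1749 to 3111 genes and 2 to 5 members. Depth limits the control liver most, at 4300000 to 9700000 reads.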

Other observations

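Within liver the IRG-type genes did not move as 1 group with LPS. Gm4951 and F830016B08Rik, the latter chosen after its values were seen, are interferon-inducible GTPase genes of the same family as Iigp1. Gm4951 held 134, 121 and 130 FPKM in Control, 53.6, 74.4 and 29.2 FPKM in LPS and 43.1, 66.7 and 37.3 FPKM in LPS+MIC-1. F830016B08Rik held 15.3, 22.9 and 18.3 FPKM in Control, 3.35, 11.2 and 1.70 FPKM in LPS and 4.47, 4.82 and 3.72 FPKM in LPS+MIC-1. Both fell with LPS, by 1.38 ± 0.346 and 2.05 ± 0.520 on the log2 scale (limma adjusted p = 0.0180 and 0.0189), and every treated library lay below every Control library. Igtp, Irgm2 and Ifi47 rose, and so did the IRG genes Tgtp2 and Gm12250, with log2 fold changes of 1.99 ± 0.475 and 2.40 ± 0.210 (limma adjusted p = 0.0154 and 0.000452).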
